A study of Mus musculus with 21 samples.

Results

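The 9 genes described here are regulators of fat cell formation and genes of lipid handling, Pparg, Cebpa, Cebpb, Cebpd, Zfp423, Medag, Lpl, Fabp4 and Plin2, which the tables list in capitals as PPARG, CEBPA, CEBPB, CEBPD, ZFP423, MEDAG, LPL, FABP4 and PLIN2. They were taken by symbol from 3 tables of RNA-seq counts, 1 table per fibroblast type, and are 9 of the 24447 genes that the 3 tables have in common. All 9 passed the filter on low counts and were tested in every comparison. In some comparisons Zfp423 passed only through the group in which it was higher. The study addressed the role of the transcription factor Prrx1 in fibroblasts, and 21 mouse cultures in 7 groups of 3 were measured. Mouse embryonic fibroblasts (MEFs) were grown from embryos of days 10 to 13 and formed 3 groups. These were WT MEFs, mutant MEFs from embryos of 129S-Prrx1tm1Jfm/Mmmh mice (genotype KI_PRRX1, strain given as C57BL/6), and sgPrrx1 MEFs, in which Prrx1 was deleted with a guide RNA and CRISPR/Cas9. The study lists its MEFs as isolated from C57BL/6 mice. Wound-healing fibroblasts of C57BL/6 mice came from dorsal skin wounds on day 10 and formed a WT and an sgPrrx1 group. MMTV-CAFs, cancer-associated fibroblasts of FVB/NJ background from tumours of MMTV-PyMT mice, a breast cancer model, also formed a WT and an sgPrrx1 group. The guide sgNS served as the WT control, and whether the WT MEFs carried it is not given. Cells of all 7 groups had been immortalized with HPV E6/E, as given, and the paper lists a vector carrying E6 and E7. The cells were kept in DMEM with 10% serum, and no label names an adipogenic medium. The labels do not say that the 3 cultures of a group came from separate animals or separately edited lines, so the p-values measure the spread between these cultures, which may be technical. The mutant and the sgPrrx1 MEFs were compared with the same 3 WT cultures.

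Fat cells form from fibroblast-like precursors in a known order of transcription factors. Cebpb and Cebpd act early, and Pparg and Cebpa follow, hold each other on and switch on genes of lipid uptake and storage. Zfp423 is a zinc finger protein known to mark and favour preadipocytes, and Medag is known to promote adipocyte differentiation. Lpl is a secreted lipase that frees fatty acids from circulating triglycerides, Fabp4 is a carrier of fatty acids inside fat cells and a PPARG target, and Plin2 coats lipid droplets in many cell types.

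The promoters below are shown because Pparg has alternative starts, which give PPARG1 and the fat-cell-enriched PPARG2, and because a count per gene adds the transcripts of all starts together. RefSeq's promoter table (GRCm38.p6, the same assembly as mm10, from which all positions here are given) held 10 promoters for 6 of the 9 genes (Pparg, Cebpa, Cebpb, Plin2, Medag and Zfp423). Each sequence is the 250 bases before a start site, on the strand of the gene, 5′ to 3′. Capitals mark matches, on either strand, to TTGCNNAA, a C/EBP core, or to AGGTCA, the half-site of nuclear receptors. The first Pparg start (chr6:115360894-115361143, plus strand) had 82.4% G and C and 1 AGGTCA match, 28 to 23 bases before the start. The third Pparg start (chr6:115421816-115422065, plus strand) had 40.8% G and C and 2 matches to the C/EBP core. Plin2 (chr4:86670060-86670309, minus strand) had an AGGTCA match on the opposite strand, and the first Zfp423 start (chr8:87959596-87959845, minus strand) had 1 C/EBP match.
Pparg, start 1: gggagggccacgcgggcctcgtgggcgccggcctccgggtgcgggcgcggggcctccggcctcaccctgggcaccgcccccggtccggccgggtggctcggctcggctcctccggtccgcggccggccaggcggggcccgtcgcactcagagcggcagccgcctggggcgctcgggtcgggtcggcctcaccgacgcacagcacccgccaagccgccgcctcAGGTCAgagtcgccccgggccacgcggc
Pparg, start 3: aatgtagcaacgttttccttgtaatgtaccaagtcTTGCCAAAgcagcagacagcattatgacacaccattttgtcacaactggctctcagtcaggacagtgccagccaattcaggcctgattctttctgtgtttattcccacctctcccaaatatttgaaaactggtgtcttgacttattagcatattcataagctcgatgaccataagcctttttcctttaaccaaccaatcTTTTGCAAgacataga
Plin2: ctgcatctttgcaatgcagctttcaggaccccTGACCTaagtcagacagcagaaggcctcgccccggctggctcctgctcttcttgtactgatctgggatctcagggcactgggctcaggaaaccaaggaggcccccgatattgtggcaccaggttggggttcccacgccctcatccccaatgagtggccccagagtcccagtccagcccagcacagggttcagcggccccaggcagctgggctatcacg
Zfp423, start 1: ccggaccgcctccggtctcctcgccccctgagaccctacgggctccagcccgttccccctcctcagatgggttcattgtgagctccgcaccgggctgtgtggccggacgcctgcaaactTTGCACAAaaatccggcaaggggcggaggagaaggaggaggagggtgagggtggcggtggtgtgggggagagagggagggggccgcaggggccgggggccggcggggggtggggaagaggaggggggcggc
Over all 32851 promoters of the same length in the table, the C/EBP core was found in 9.56% and AGGTCA in 14.0%, and the median G and C content was 52.4%. The second starts of Pparg and Zfp423 also held an AGGTCA match. The motif TAATTA, a homeodomain core of the kind Prrx1 binds, was found in 0 of the 10 promoters and in 4.84% of all promoters. The promoters of Cebpa, Cebpb and Medag held no match to these 3 motifs. A match is a description of the letters, and the counts do not tell which start was in use.

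Depth and labels were checked first. The cultures held 69588655 to 134790440 counts, and no pair of cultures of a group agreed within sampling noise. Levels are given as CPM, counts per 1000000 after scaling all 21 cultures together by TMM. Prrx1 had 166 to 192 CPM in WT MEFs, 19.9 to 26.1 in mutant MEFs and 94.9 to 140 in sgPrrx1 MEFs, a fall by 3.04 and by 0.60 on the log2 scale. It fell by 1.18 in sgPrrx1 wound-healing fibroblasts, where it had 64.2 to 65.3 CPM against 143 to 152, and by 1.06 in sgPrrx1 MMTV-CAFs, where it had 301 to 309 against 627 to 636. Prrx1 mRNA was thus lower in every group with Prrx1 loss and was not absent from any. In the mutant allele the paper describes LacZ inserted within the homeodomain of Prrx1. Counts per gene measure neither the editing nor the protein left. Fibroblast genes were present in all groups, with the 8 markers summing to 12200 to 12400 CPM in WT MEFs, 8220 to 8370 in WT wound-healing fibroblasts and 31700 to 32300 in WT MMTV-CAFs. The sum was 5600 to 6850 CPM in mutant MEFs, 9580 to 11300 in sgPrrx1 MEFs, 3230 to 3250 in sgPrrx1 wound-healing fibroblasts and 15200 to 15400 in sgPrrx1 MMTV-CAFs. Genes of the Y chromosome were looked at after other values had been seen, and single ones differed widely in 2 of the comparisons. Kdm5d had 10.6 to 11.7 CPM in WT, 8.72 to 9.67 in sgPrrx1 and 0 to 0.0354 in mutant MEFs, and Ddx3y had 20 to 22.3 CPM in WT wound-healing fibroblasts and 1.96 to 2.18 in their sgPrrx1 counterparts. The other Y chromosome genes looked at were present in both of these groups. In mutant MEFs they lay above WT, with Eif2s3y at 10.8 to 13.7 CPM against 1.93 to 2.13. Ddx3y had 18.8 to 23.8 CPM there against 14.6 to 17.5, and Uty 7.64 to 9.69 against 5.01 to 6.93. Both MMTV-CAF groups had 0 CPM of the 4 genes looked at, and Ddx3y and Uty overlapped between WT and sgPrrx1 MEFs. The part of a difference between culture lines in the results was not tested, and in bulk RNA fewer cells expressing a gene cannot be told apart from less RNA per cell.

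With Prrx1 loss, the 9 genes did not move as a group. In mutant MEFs 7 of the 9 genes were called, 3 higher and 4 lower, where called means an adjusted p under 0.05 in edgeR's quasi-likelihood test, and 59.9% of all 13616 genes tested were called, 29.4% higher and 30.5% lower. In sgPrrx1 MEFs 4 of 9 were called, 2 higher and 2 lower, against 43.1% of 13372 genes (20.3% higher and 22.8% lower). In sgPrrx1 wound-healing fibroblasts 7 of 9 were called, 2 higher and 5 lower, against 77.6% of 13939 genes (38.3% and 39.3%). In sgPrrx1 MMTV-CAFs 9 of 9 were called, 5 higher and 4 lower, against 83.1% of 13903 genes (41.2% and 41.9%). These shares are read against those of all genes, since most genes of the wound-healing fibroblasts and MMTV-CAFs were called. In both types Zfp423 passed the filter on low counts only through the sgPrrx1 cultures, so its calls there are not independent of the filter. Lpl was lower in all 4 comparisons and is the 1 member of which this held, and no member was higher in all 4. The median log2 fold change of the 9 genes was 0.38 in mutant MEFs, -0.31 in sgPrrx1 MEFs, -0.62 in sgPrrx1 wound-healing fibroblasts and 0.16 in sgPrrx1 MMTV-CAFs, and the median over all genes tested was 0.01, 0.00, 0.00 and 0.00.

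**Figure D1:**
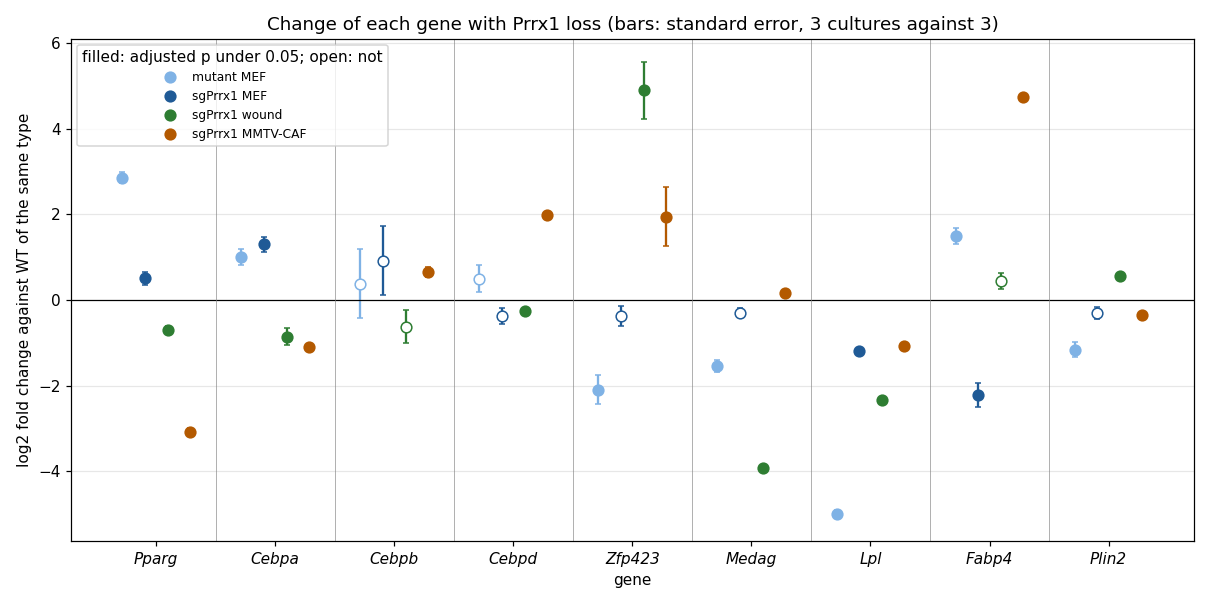
Change of each of the 9 genes (x axis) with Prrx1 loss, as log2 fold change against the WT cultures of the same type (y axis), with bars for the standard error of 3 cultures against 3. Filled points passed an adjusted p of 0.05 and open points did not. Lpl lies below 0 in all 4 comparisons, and Pparg and Fabp4 lie on both sides of it.

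Pparg (chr6:115360879-115490404), the nuclear receptor that directs fat cell formation, was higher in mutant MEFs and lower in sgPrrx1 MMTV-CAFs. It had 2.68, 2.25 and 3.11 CPM in WT MEFs and 20.1, 19.96 and 19.2 CPM in mutant MEFs. The groups were far apart, and the change was 7.24-fold (log2 fold change 2.86, SE 0.14, adjusted p = 7.56e-06). In sgPrrx1 MEFs the cultures had 3.77, 4.05 and 3.73 CPM, which is above each WT culture by little, and the change was 1.42-fold (log2 fold change 0.51, SE 0.15, adjusted p = 0.0312). This last call rested on single cultures, since it was lost when WT replicate 1 (adjusted p = 0.0711), WT replicate 2 (0.0921) or sgPrrx1 replicate 1 (0.0602), 2 (0.0973) or 3 (0.0631) was left out, and was kept without WT replicate 3. In wound-healing fibroblasts the WT cultures had 4.92, 4.91 and 5.60 CPM and the sgPrrx1 cultures 3.29, 3.08 and 3.22. All 3 sgPrrx1 cultures were lower, by 1.61-fold (log2 fold change -0.69, SE 0.09, adjusted p = 8.6e-05). In MMTV-CAFs the WT cultures had 12.6, 12.9 and 13.7 CPM and the sgPrrx1 cultures 1.80, 1.49 and 1.38, an 8.49-fold lower level (log2 fold change -3.09, SE 0.09, adjusted p = 2.17e-08). Over the 7 groups the mean was highest in mutant MEFs (19.7 ± 0.474 CPM, SD, n = 3) and lowest in sgPrrx1 MMTV-CAFs (1.56 ± 0.22), a 12.7-fold range. The next groups in order were WT MMTV-CAFs, WT wound-healing fibroblasts, sgPrrx1 MEFs, sgPrrx1 wound-healing fibroblasts and WT MEFs. Of these neighbours, only sgPrrx1 wound-healing fibroblasts and WT MEFs overlapped.

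Cebpa (chr7:35119293-35121928), the partner of Pparg in late differentiation, was higher with Prrx1 loss in MEFs and lower in both other types. WT MEFs had 1.90, 2.59 and 1.81 CPM, mutant MEFs 4.68, 4.18 and 3.98, and sgPrrx1 MEFs 5.49, 5.47 and 4.66. Both groups with Prrx1 loss lay above every WT culture, by 2.01-fold in mutant MEFs (log2 fold change 1.01, SE 0.19, adjusted p = 0.00324) and 2.46-fold in sgPrrx1 MEFs (log2 fold change 1.30, SE 0.17, adjusted p = 0.00145). In wound-healing fibroblasts the level went from 1.60, 1.88 and 1.23 CPM in WT to 0.951, 0.837 and 0.812 in sgPrrx1 cultures (log2 fold change -0.86, SE 0.20, adjusted p = 0.00364). In MMTV-CAFs it went from 12, 13.2 and 11.7 CPM to 5.55, 5.51 and 6.30 (log2 fold change -1.11, SE 0.07, adjusted p = 1.69e-06). The groups did not overlap in either type. WT MMTV-CAFs had the highest mean (12.3 ± 0.768 CPM) and sgPrrx1 wound-healing fibroblasts the lowest (0.867 ± 0.0738), a 14.2-fold range. Neighbours that overlapped were sgPrrx1 and mutant MEFs, and WT MEFs and WT wound-healing fibroblasts.

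**Figure D2:**
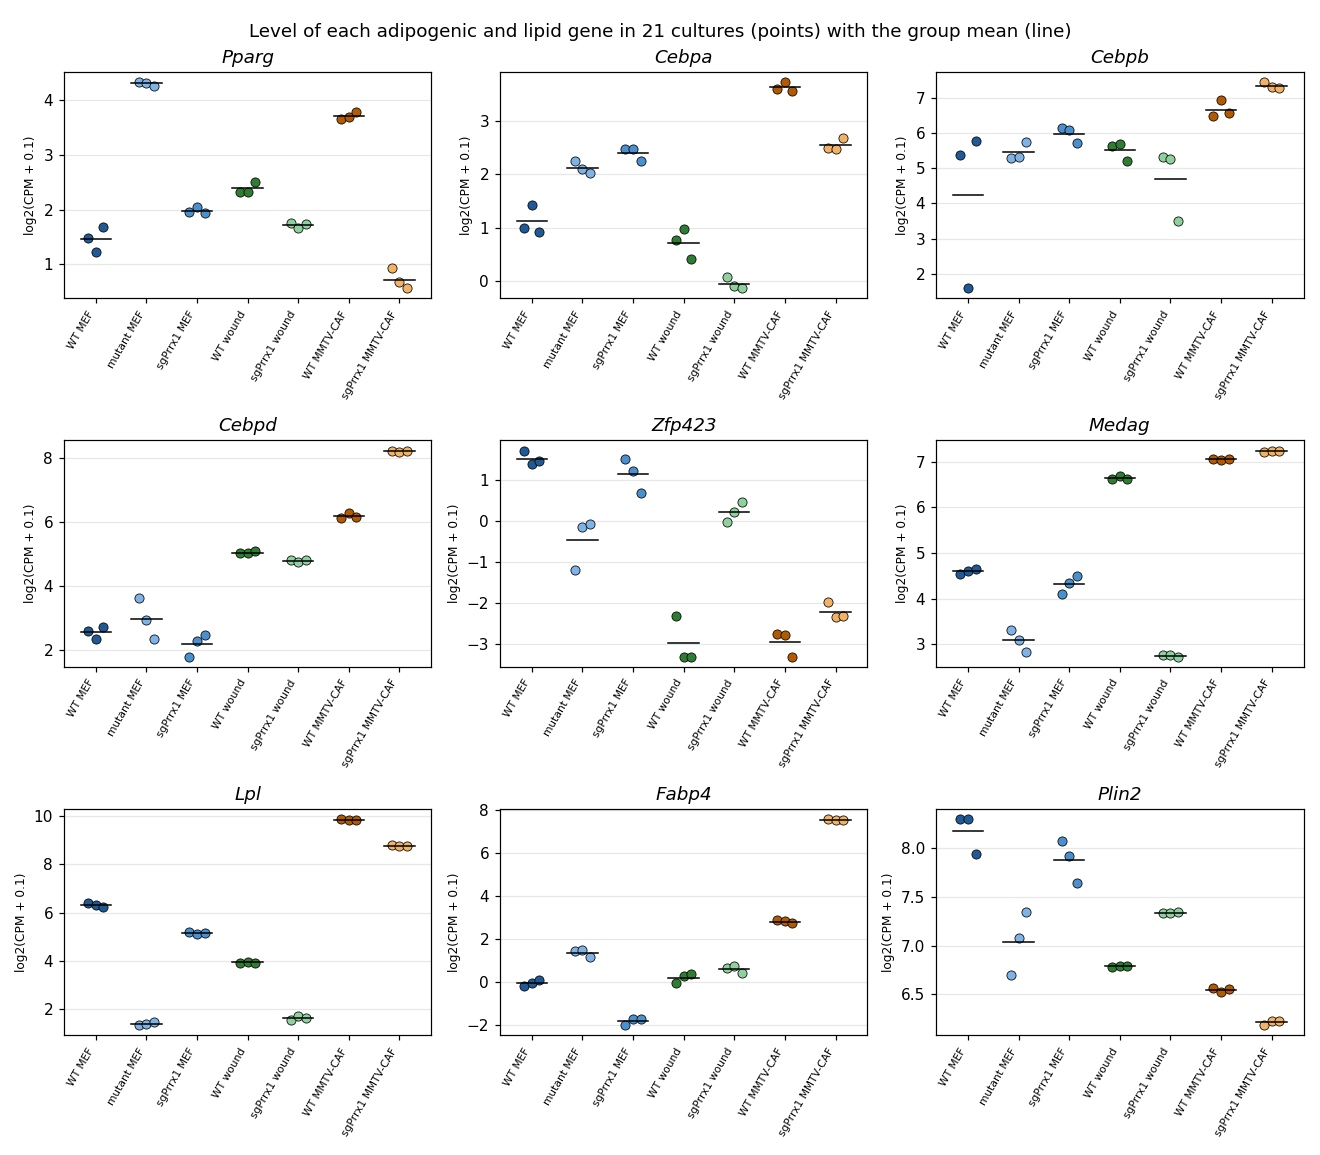
Level of each of the 9 genes, as log2(CPM + 0.1) on the y axis, in the 21 cultures (points) of the 7 groups (x axis), with the group mean as a line. The y axis differs between panels, and the 1 WT MEF culture far below the others for Cebpb had 2.92 CPM.

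Cebpb (chr2:167688915-167690432), an early factor that also responds to stress and cytokines, varied widely between the replicate cultures of 2 groups. The WT MEF cultures had 41.3, 2.92 and 54.9 CPM, from 2850, 203 and 4778 counts. The second culture was 18.8-fold below the highest of its group, and the coefficient of variation, the SD as a percent of the mean, was 81.6%. The sgPrrx1 wound-healing fibroblasts had 39.7, 38.4 and 11.2 CPM, with the third culture 3.55-fold below the highest and a coefficient of variation of 54.1%. In the other 5 groups it was 5.99% to 17.8%. Mutant MEFs had 38.8, 40.0 and 52.9 CPM and sgPrrx1 MEFs 69.7, 67.2 and 51.9, so that both overlapped the WT range. The change did not pass the test in mutant MEFs (log2 fold change 0.38, 95% interval -1.21 to 1.98, adjusted p = 0.703) or in sgPrrx1 MEFs (0.92, interval -0.67 to 2.50, adjusted p = 0.389). Without the second WT culture, the value in mutant MEFs was -0.16, with adjusted p = 0.497, so its sign rests on that culture. WT wound-healing fibroblasts had 49.5, 51.2 and 36.9 CPM, and the change there did not pass either (-0.62, interval -1.38 to 0.13, adjusted p = 0.169). In MMTV-CAFs Cebpb was higher in each sgPrrx1 culture, with 173, 157 and 156 CPM against 88.9, 121 and 93.5 (log2 fold change 0.66, SE 0.11, adjusted p = 0.000778), while with 1 estimate of the spread over all 21 cultures adjusted p was 0.322. The interval in mutant MEFs includes 2-fold changes in both directions, so changes of that size were not detectable there.

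The 2 divergent cultures were compared with the others of their group over genes of at least 10 CPM. In WT MEF replicate 2, 9 genes were more than 3-fold below both other cultures, and in sgPrrx1 wound-healing replicate 3, 5 genes were. Cebpb was the 1 gene in both lists. The 2 cultures were picked for their low Cebpb, so its place in both lists was fixed in advance. Over all 21 cultures the number of such genes ran from 0 to 20, with 20 in WT MEF replicate 1. Few other genes of these 2 cultures were low in the same way.

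**Figure D3:**
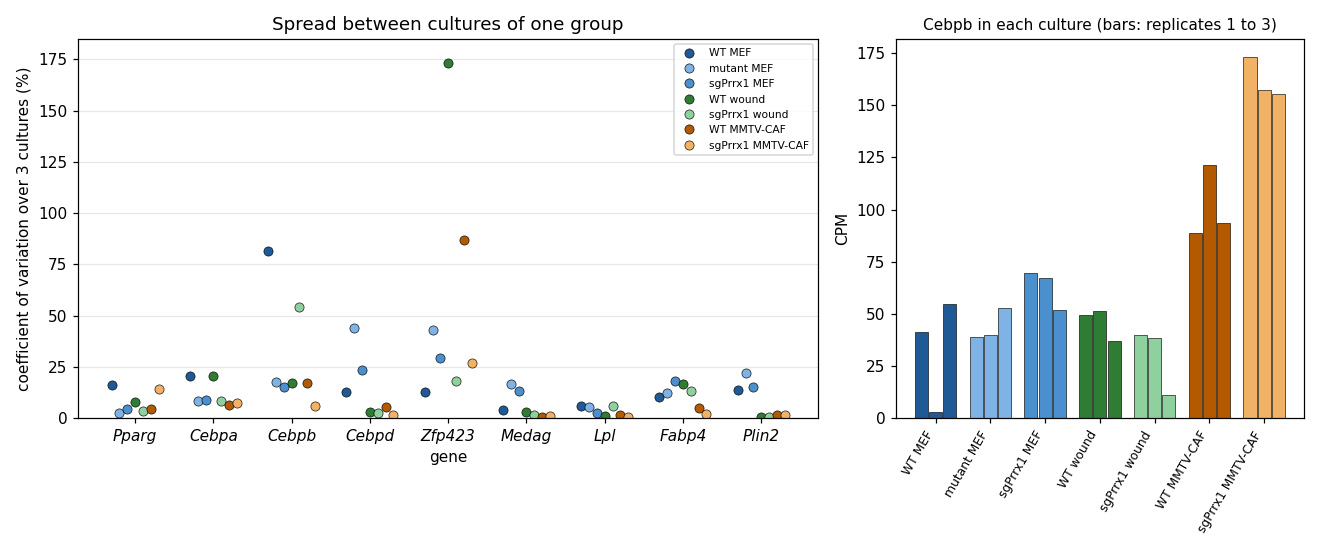
Left, coefficient of variation over the 3 cultures of a group (y axis, percent) for each of the 9 genes (x axis), with 1 point per group. Right, CPM of Cebpb in each of the 21 cultures (bars). Cebpb reaches 81.6% in WT MEFs, and the still higher points of Zfp423 come from groups with 0 to 9 counts per culture.

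Cebpd (chr16:15887286-15889545), the other early factor, was highest in sgPrrx1 MMTV-CAFs. The WT MMTV-CAFs had 70.4, 77.8 and 71.8 CPM and the sgPrrx1 cultures 300, 291 and 295, a 3.97-fold higher level (log2 fold change 1.99, SE 0.04, adjusted p = 2.46e-09). In wound-healing fibroblasts the fall was small, from 32.3, 32.4 and 34.1 CPM to 28.0, 26.8 and 28.2 (log2 fold change -0.26, SE 0.03, adjusted p = 0.000139), and adjusted p was 0.299 when all 21 cultures shared 1 estimate of the spread. MEFs had low levels, with 5.89, 5.00 and 6.47 CPM in WT, 12.2, 7.52 and 5.00 in mutant and 3.36, 4.71 and 5.42 in sgPrrx1 cultures. The mutant cultures spread from the lowest WT level to above all of it, with a coefficient of variation of 44.2%. Neither change passed the test (mutant 0.49, interval -0.12 to 1.11, adjusted p = 0.212, and sgPrrx1 -0.38, interval -0.76 to 0.01, adjusted p = 0.157). Without mutant replicate 3 the mutant change was 0.76, with adjusted p = 0.03. The 3 MEF groups overlapped each other and lay below both wound-healing groups and both MMTV-CAF groups, which did not overlap, and the range from highest to lowest group mean was 65.6-fold. Cebpd overlaps the gene Spidr at its end in the annotation, and library preparation did not keep strand, so reads of the shared bases cannot be assigned to either.

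Zfp423 (chr8:87661810-87962053), the preadipocyte zinc finger gene, was near the limit of counting outside MEFs. WT MEFs had 3.19, 2.52 and 2.65 CPM, mutant MEFs 0.335, 0.803 and 0.851, and sgPrrx1 MEFs 2.75, 2.25 and 1.496. The mutant cultures lay below all WT cultures, by 4.28-fold (log2 fold change -2.10, SE 0.34, adjusted p = 0.00168), and the sgPrrx1 cultures overlapped them (-0.38, interval -0.84 to 0.08, adjusted p = 0.229). In wound-healing fibroblasts the WT cultures held 9, 0 and 0 counts and the sgPrrx1 cultures 79, 100 and 96. Zfp423 was thus close to absent from the WT cultures and counted in each sgPrrx1 culture (0.883, 1.07 and 1.28 CPM). Summed over cultures, 275 counts against 9 gave a ratio of 30.7, with a 95% counting interval of 15.9 to 67.8, and the fitted log2 fold change was 4.90 (SE 0.67, adjusted p = 0.00015). In MMTV-CAFs the counts were 5, 5 and 0 in WT and 17, 13 and 11 in sgPrrx1 cultures, a ratio of 4.03 with a counting interval of 1.99 to 9.03 and a fitted log2 fold change of 1.95 (SE 0.69, adjusted p = 0.0301). The MMTV-CAF call was lost without any 1 sgPrrx1 culture (adjusted p = 0.0512 to 0.0946) and with no filter on low counts (0.0888). Counting intervals cover counting error only. In both types Zfp423 passed the filter on low counts only through the sgPrrx1 cultures, where it was higher, so neither call is independent of that filter. The order of group means ran from WT MEFs and sgPrrx1 MEFs, which overlapped, to sgPrrx1 wound-healing fibroblasts, mutant MEFs, and then 3 groups at or under 0.151 CPM in every culture, of which each overlapped the next. Zfp423 contains the noncoding gene Gm34412, so its reads could also come from there.

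Medag (chr5:149367641-149431723), which promotes adipocyte differentiation, showed the largest fall of the 9 genes in wound-healing fibroblasts. The WT cultures had 98.5, 103 and 97.8 CPM and the sgPrrx1 cultures 6.67, 6.71 and 6.54. The sgPrrx1 level was 15.1-fold lower (SE of the log2 fold change 0.03, adjusted p = 2.11e-11). In MEFs, WT cultures had 23.3, 24.3 and 25.1 CPM, mutant cultures 9.91, 8.51 and 7.04 and sgPrrx1 cultures 17.2, 20.2 and 22.4. Medag was 2.89-fold lower in mutant MEFs (log2 fold change -1.53, SE 0.14, adjusted p = 0.000137), and in sgPrrx1 MEFs the difference of -0.30 (SE 0.11) did not pass the test (adjusted p = 0.06). All 3 sgPrrx1 MEF cultures were below all 3 WT cultures, and without sgPrrx1 replicate 3 the difference was -0.39 with adjusted p = 0.0285. In MMTV-CAFs Medag had 133, 132 and 132 CPM in WT and 149, 151 and 151 in sgPrrx1 cultures, a rise of 1.12-fold (log2 fold change 0.16, SE 0.02, adjusted p = 2.19e-05) that rested on the close agreement of these cultures, since adjusted p was 0.081 when all 21 cultures shared 1 estimate of the spread. No 2 neighbouring groups overlapped, and the mean ranged 22.7-fold, from 150 ± 1.27 CPM in sgPrrx1 MMTV-CAFs to 6.64 ± 0.0887 in sgPrrx1 wound-healing fibroblasts.

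Lpl (chr8:68880555-68906932), the lipase, was lower with Prrx1 loss in every type and by both means of loss in MEFs. WT MEFs had 83.7, 80.6 and 74.4 CPM, mutant MEFs 2.43, 2.5 and 2.7, and sgPrrx1 MEFs 36.1, 34.4 and 35.6. The 3 groups were apart, with a 31.8-fold lower level in mutant MEFs (log2 fold change -4.99, SE 0.10, adjusted p = 1.15e-06) and a 2.27-fold lower level in sgPrrx1 MEFs (log2 fold change -1.18, SE 0.07, adjusted p = 4.56e-05). Wound-healing fibroblasts had 15.1, 15.4 and 15.2 CPM in WT and 2.85, 3.21 and 2.97 in sgPrrx1 cultures, 5.07-fold lower (log2 fold change -2.34, SE 0.06, adjusted p = 3.63e-09). MMTV-CAFs had 937, 909 and 914 CPM in WT and 443, 439 and 436 in sgPrrx1 cultures, 2.12-fold lower (SE of the log2 fold change 0.02, adjusted p = 7.22e-10). The loss of Lpl was thus partial in MMTV-CAFs, whose sgPrrx1 cultures still had more Lpl than any culture of another type. No 2 neighbouring groups overlapped, and the range from WT MMTV-CAFs (920 ± 14.9 CPM) to mutant MEFs (2.54 ± 0.142) was 362-fold. Every change of Lpl against WT kept its direction and its call under each alternative tried.

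Fabp4 (chr3:10204342-10208616), the fatty acid carrier, rose most in sgPrrx1 MMTV-CAFs among the 9 genes. The WT MMTV-CAFs had 7.18, 6.96 and 6.54 CPM and the sgPrrx1 MMTV-CAFs 190, 183 and 183. The rise was 26.6-fold (log2 fold change 4.73, SE 0.04, adjusted p = 6.13e-11). Pparg, of which Fabp4 is a known target, was 8.49-fold lower in the same cultures. In MEFs Fabp4 had 0.783, 0.864 and 0.966 CPM in WT, 2.59, 2.73 and 2.14 in mutant and 0.148, 0.207 and 0.206 in sgPrrx1 cultures. The means of Prrx1 loss gave opposite signs, with a 2.81-fold rise in mutant MEFs (log2 fold change 1.49, SE 0.19, adjusted p = 0.000555) and a 4.66-fold fall in sgPrrx1 MEFs (log2 fold change -2.22, SE 0.28, adjusted p = 0.00103). In wound-healing fibroblasts the WT cultures had 0.854, 1.1 and 1.19 CPM and the sgPrrx1 cultures 1.44, 1.60 and 1.23. The groups did not overlap, and the difference did not pass the test (log2 fold change 0.44, SE 0.19, adjusted p = 0.056), while without sgPrrx1 replicate 3 it was 0.53 with adjusted p = 0.042. The range over groups was 993-fold, from 186 ± 4.07 CPM in sgPrrx1 MMTV-CAFs to 0.187 ± 0.0339 in sgPrrx1 MEFs, and only WT wound-healing fibroblasts and WT MEFs overlapped as neighbours.

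Plin2 (chr4:86626910-86670217), the droplet coat protein, had the narrowest range of the 9 genes, 3.96-fold over the groups. WT MEFs had 316, 316 and 247 CPM, mutant MEFs 104, 135 and 162, and sgPrrx1 MEFs 271, 243 and 200. The mutant cultures were all below the WT cultures, by 2.23-fold (log2 fold change -1.16, SE 0.18, adjusted p = 0.00127), and the sgPrrx1 cultures overlapped them (-0.31, SE 0.14, adjusted p = 0.11). Without WT replicate 3 the sgPrrx1 difference was -0.42 with adjusted p = 0.0346. In wound-healing fibroblasts Plin2 was higher in sgPrrx1 cultures, 161, 162 and 163 CPM against 110, 111 and 111 (log2 fold change 0.55, SE 0.02, adjusted p = 1.84e-08). In MMTV-CAFs it was lower, 72.4, 74.4 and 74.8 CPM against 94.8, 91.7 and 93.7 (log2 fold change -0.36, SE 0.02, adjusted p = 1.53e-06). Both of these changes were under 2-fold. Neighbours that overlapped were WT and sgPrrx1 MEFs, sgPrrx1 wound-healing fibroblasts and mutant MEFs, and mutant MEFs and WT wound-healing fibroblasts. The pseudogene Gm12551 lies within the annotated span of Plin2, and reads of the shared bases cannot be assigned.

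Whether the change with sgPrrx1 differed between the 3 types was tested as an interaction over the 18 WT and sgPrrx1 cultures. It differed for 8 of the 9 genes, against 80.1% of all 14972 genes tested, and did not pass for Cebpb (adjusted p = 0.211). Cebpa rose in MEFs and fell in the other types, and its change did not differ detectably between MMTV-CAFs and wound-healing fibroblasts (difference of log2 fold changes -0.20, interval -0.63 to 0.23, adjusted p = 0.447). The fall of Lpl was larger in wound-healing fibroblasts than in MEFs by 1.19 (SE 0.07, adjusted p = 8.91e-10), and the difference between MMTV-CAFs and MEFs was 0.12 (interval -0.01 to 0.25, adjusted p = 0.137). Plin2 did not differ detectably between MMTV-CAFs and MEFs (-0.03, interval -0.30 to 0.24, adjusted p = 0.923), nor Cebpd between wound-healing fibroblasts and MEFs (0.09, interval -0.23 to 0.40, adjusted p = 0.685). For Pparg, Fabp4, Medag and Zfp423 each of the 3 pairs of types differed, and of all genes 60.3% differed between wound-healing fibroblasts and MEFs, 60.7% between MMTV-CAFs and MEFs and 66.5% between MMTV-CAFs and wound-healing fibroblasts. For Zfp423 the difference between MMTV-CAFs and wound-healing fibroblasts was -2.92 (SE 1.22, adjusted p = 0.0458), with at most 9 counts in any WT culture of these types. Zfp423 passed the filter on low counts only through groups in which it was higher, so its calls here are not independent of that filter. Apart from the counting intervals of Zfp423, the interval used is 1.96 standard errors on each side. It takes no account of the small number of cultures, so it is narrower than the F test would give.

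The means of Prrx1 loss were compared directly in MEFs, with the sgPrrx1 cultures set against the mutant cultures. Of the 9 genes, 7 were called, 5 higher and 2 lower in sgPrrx1 MEFs, against 56.2% of 13379 genes tested, 27.8% higher and 28.4% lower. Lpl was 14.0-fold higher in sgPrrx1 than in mutant MEFs, Zfp423 3.28-fold, Medag 2.35-fold, Plin2 1.79-fold and Cebpb 1.44-fold. Pparg was 5.11-fold and Fabp4 13.1-fold lower. Adjusted p-values were 3.5e-06 for Pparg, 1.08e-06 for Lpl, 2.23e-05 for Fabp4, 0.000793 for Medag, 0.00757 for Plin2, 0.00901 for Zfp423 and 0.0291 for Cebpb. Cebpa (0.29, SE 0.12, adjusted p = 0.0832) and Cebpd (-0.87, SE 0.35, adjusted p = 0.0709) did not pass the test. Before adjustment p was 0.0511 for Cebpa and 0.0423 for Cebpd. The Cebpb call was lost without mutant replicate 1 or 2 or sgPrrx1 replicate 1 or 2 (adjusted p = 0.0776 to 0.104), and without mutant replicate 3 the difference of Cebpd was -1.13 with adjusted p = 0.0155. Prrx1 mRNA itself was 5.43-fold higher in sgPrrx1 than in mutant MEFs, which does not measure the protein left.

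Among the WT cultures, MMTV-CAFs had the highest level of 7 of the 9 genes, Pparg, Cebpa, Cebpb, Cebpd, Lpl, Fabp4 and Medag, and MEFs the highest of Plin2 and Zfp423. Of the 27 contrasts between types, 21 were called, and 80.3%, 79.2% and 80.4% of the 14380 genes tested were called for wound-healing fibroblasts against MEFs, MMTV-CAFs against MEFs and MMTV-CAFs against wound-healing fibroblasts. Lpl was 11.2-fold higher in WT MMTV-CAFs than in WT MEFs and 57.3-fold higher than in WT wound-healing fibroblasts. Cebpd was 12.3-fold and Fabp4 7.64-fold higher in WT MMTV-CAFs than in WT MEFs. The 3 contrasts of Cebpb did not pass (adjusted p = 0.0739 to 0.534), nor did Cebpa and Fabp4 between wound-healing fibroblasts and MEFs (adjusted p = 0.0773 and 0.0998) or Zfp423 between MMTV-CAFs and wound-healing fibroblasts (adjusted p = 0.809). Zfp423 passed the filter on low counts here only through the WT MEFs, so its calls against them are not independent of that filter. Type and culture line cannot be told apart in these contrasts, and neither can mouse strain and sex in those with MMTV-CAFs. Xist had 315 to 451 CPM in MMTV-CAFs and at most 0.142 CPM in any MEF or wound-healing culture. MMTV-CAFs alone had no counts of any Y chromosome gene looked at, which is the pattern of female cells.

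Levels of different genes can be compared only per length, here as CPM per kilobase of exons. In WT MEFs Plin2 was the most abundant of the 9 genes (83.3 ± 11.3 CPM per kilobase), followed by Cebpb (22.0 ± 17.9) and Lpl (11.7 ± 0.694). In WT MMTV-CAFs Lpl came first (135 ± 2.19), followed by Cebpb (67.3 ± 11.7) and Cebpd (62.2 ± 3.34), which do not differ beyond their spread. In sgPrrx1 MMTV-CAFs Fabp4 (292 ± 6.38) and Cebpd (250 ± 3.92) were above Cebpb (108 ± 6.45) and Lpl (64.5 ± 0.539). In WT wound-healing fibroblasts Plin2 (31.5 ± 0.186), Cebpb (30.5 ± 5.18) and Cebpd (27.9 ± 0.901) had similar levels per kilobase, and Medag followed (18.2 ± 0.533). Zfp423 and Cebpa were under 1 CPM per kilobase in WT MEFs and WT wound-healing fibroblasts. These levels depend on the length taken, since per kilobase of the longest transcript Plin2 had 58.5 in WT wound-healing fibroblasts and 155 in WT MEFs, and Lpl had 107 in sgPrrx1 MMTV-CAFs, close to Cebpb.

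The levels of these regulators can be set beside genes that mark finished fat cells. The 13 adipocyte markers summed to 8.22 to 10.1 CPM in WT MEFs, 6.75 to 10.4 in mutant MEFs and 11.2 to 14.6 in sgPrrx1 MEFs, and Plin4 was the highest of them in each of the 7 groups. They summed to 2.55 to 3.14 CPM in WT and 1.25 to 1.43 in sgPrrx1 wound-healing fibroblasts, and to 19.8 to 21.2 in WT and 7.65 to 8.15 in sgPrrx1 MMTV-CAFs. Defining markers were absent or nearly so, with Lep at 0 counts in all 21 cultures, Cidec and Cfd at 0 in 20 and Adipoq at 0 in 18. Plin4 made up most of the sum in MMTV-CAFs, at 20.2 CPM in WT and 6.07 in sgPrrx1 cultures. Without Plin4, which was set aside after seeing the data, the other 12 markers summed to 0.486 to 0.688 CPM in WT and 1.7 to 1.97 in sgPrrx1 MMTV-CAFs, and to at most 0.92 CPM in any culture of another type. The rise of Fabp4 in sgPrrx1 MMTV-CAFs thus came with lower Plin4 and a higher sum of the other adipocyte markers. Slc2a4, the insulin-responsive glucose transporter, rose from 0.168 to 0.509 CPM (adjusted p = 0.00936). Resistin (Retn), a hormone of mouse fat cells, was counted in the same cultures, with 119, 159 and 120 counts against 0, 2 and 7 in WT MMTV-CAFs. Retn (1.1 CPM) and Slc2a4 made up most of that higher sum. Of the same list Gpd1 was lower, at 0.191 CPM against 0.3 in WT (adjusted p = 0.0437). Adrb3 had 0.00739 CPM in sgPrrx1 and 0.0907 in WT MMTV-CAFs. Macrophages also express Fabp4, and the 10 macrophage markers summed to 14.0 to 14.5 CPM in WT and 26.6 to 27.7 in sgPrrx1 MMTV-CAFs, of which Cd14 made up 26.1 in the latter, while Csf1r went from 5.60 to 0.191 CPM. Capillary endothelium expresses Fabp4 too, and the 10 endothelial markers summed to 8.25 to 8.86 and 15.8 to 16.5 CPM in these groups. Among them Egfl7 went from 4.12 to 14.6 CPM, while Tek went from 2.16 to 0.0716 and Kdr from 0.955 to 0.00887 CPM. The 10 epithelial markers summed to 198 to 239 CPM in mutant MEFs against 17.9 to 20 in WT MEFs, and to 0.204 to 0.339 in sgPrrx1 against 52.1 to 54.3 in WT MMTV-CAFs, in both cases mainly Krt19. The endothelial sum was 293 to 298 CPM in WT and 145 to 150 in sgPrrx1 wound-healing fibroblasts, mainly Kdr. The part of other cells in the results for the 9 genes was not tested.

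Lists of genes around the 9 were described by the same counts, with some genes in more than 1 list, and are read against the shares of all genes tested. Of the pro-adipogenic regulators tested besides the 9, 8 of 15 were lower and 2 higher in mutant MEFs, 6 and 2 of 15 in sgPrrx1 MEFs, 8 and 5 of 16 in sgPrrx1 wound-healing fibroblasts, and 8 and 8 of 16 in sgPrrx1 MMTV-CAFs. Of all genes, 30.5%, 22.8%, 39.3% and 41.9% were lower and 29.4%, 20.3%, 38.3% and 41.2% higher in this order. Klf15, a Krüppel-like factor that favours adipogenesis, had 5.13, 5.12 and 4.61 CPM in WT wound-healing fibroblasts and 0.0559, 0.0429 and 0.133 in sgPrrx1 cultures, and rose in sgPrrx1 MMTV-CAFs from 3.97, 3.54 and 4.29 to 9.07, 9.23 and 8.82 CPM. Ppargc1a, a coactivator of Pparg, was 2.05-fold lower in sgPrrx1 MEFs and 6.09-fold higher in sgPrrx1 MMTV-CAFs, where it remained at 1.89 CPM. Srebf1, a regulator of lipid synthesis, was 2.79-fold lower in sgPrrx1 MMTV-CAFs. The medians of this list were -0.34, -0.34, -0.21 and -0.04 on the log2 scale in the order above.

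Genes known to hold back adipogenesis were lower for 7 of 11 in mutant MEFs, 6 of 10 in sgPrrx1 MEFs, 6 of 13 in sgPrrx1 wound-healing fibroblasts and 9 of 12 in sgPrrx1 MMTV-CAFs, and higher for 2, 3, 6 and 3. Of all genes, 30.5%, 22.8%, 39.3% and 41.9% were lower and 29.4%, 20.3%, 38.3% and 41.2% higher in this order. Both counts in sgPrrx1 wound-healing fibroblasts are near their background. The medians were -0.74, -0.65, -0.21 and -0.67. Zfp521, the zinc finger relative of Zfp423 that opposes it in preadipocytes, had 130, 130 and 132 CPM in WT MMTV-CAFs, and 0, 11 and 7 counts were left in the sgPrrx1 cultures against 13901, 14919 and 17501. In wound-healing fibroblasts it went from 18.3, 17.8 and 17.3 CPM to 1.03, 1.20 and 1.29, and it was 2.16-fold lower in sgPrrx1 MEFs. In wound-healing fibroblasts Zfp423 was thus higher and Zfp521 lower in sgPrrx1 cultures. The directions were the same in MMTV-CAFs, where Zfp423 had at most 17 counts in a culture and its call was lost without any 1 sgPrrx1 culture. In mutant MEFs both were lower, with Zfp521 at 11.6, 12.8 and 14.3 CPM against 42.6, 42.7 and 39.5. Wnt10b, a ligand that blocks adipogenesis, had 13.1, 13.1 and 11.8 CPM in mutant MEFs and at most 0.16 CPM in WT and sgPrrx1 MEFs. Dlk1 (Pref-1), an inhibitor of adipogenesis, was 2.76-fold higher in sgPrrx1 wound-healing fibroblasts.

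**Figure D4:**
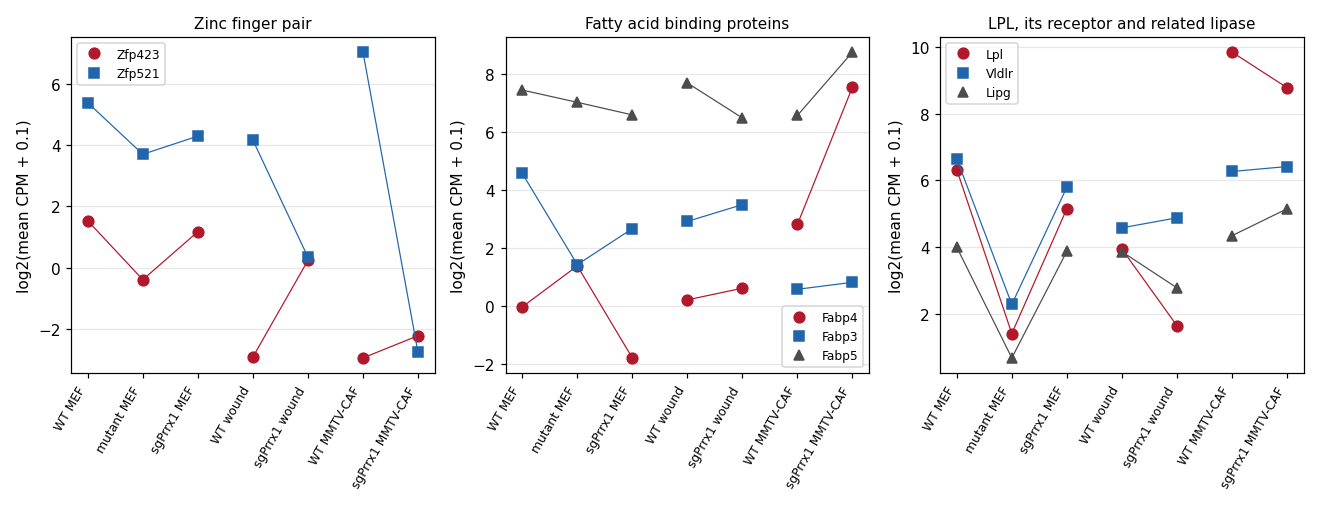
Mean level of 3 of the members and of relatives or partners, as log2(mean CPM + 0.1) on the y axis, in the 7 groups (x axis). Left, Zfp423 and Zfp521. Middle, the fatty acid binding proteins Fabp4, Fabp3 and Fabp5. Right, Lpl with its receptor Vldlr and the related lipase Lipg. Lines join the groups of a type and stand for no course in time. Zfp521 falls where Zfp423 rises in the wound-healing fibroblasts and MMTV-CAFs, and Zfp423 stays near the limit of counting in MMTV-CAFs.

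Markers of adipose progenitors were lower for 6 of 7 in mutant MEFs, 6 of 7 in sgPrrx1 MEFs, 4 of 7 in sgPrrx1 wound-healing fibroblasts and 7 of 8 in sgPrrx1 MMTV-CAFs, and higher for 1, 0, 2 and 1, against 30.5%, 22.8%, 39.3% and 41.9% of all genes lower and 29.4%, 20.3%, 38.3% and 41.2% higher. The count in sgPrrx1 wound-healing fibroblasts is the closest to its background. The medians were -2.57, -1.10, -1.48 and -1.75. Several are general fibroblast surface proteins, such as Pdgfra and Pdgfrb, the platelet-derived growth factor receptors. Pdgfra had 150, 146 and 130 CPM in WT, 17.2, 20.04 and 20.2 in mutant and 16.9, 15.9 and 17.0 in sgPrrx1 MEFs, and rose in MMTV-CAFs from 957, 923 and 937 to 1828, 1837 and 1840 CPM. Pdgfrb was 5.89-fold lower in sgPrrx1 wound-healing fibroblasts and 4.29-fold lower in sgPrrx1 MMTV-CAFs. Cd24a was higher in mutant MEFs, at 374 CPM against 16.5, and in sgPrrx1 wound-healing fibroblasts, at 55.8 against 27.9. Cd34 was also higher in sgPrrx1 wound-healing fibroblasts, at 172 CPM against 66.7, and lower in mutant MEFs, at 131 against 767.

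Fatty acid synthesis genes were lower for 4 of 14 in mutant MEFs, 10 of 14 in sgPrrx1 MEFs, 10 of 14 in sgPrrx1 wound-healing fibroblasts and 11 of 14 in sgPrrx1 MMTV-CAFs, and higher for 3, 0, 4 and 2. Of all genes, 30.5%, 22.8%, 39.3% and 41.9% were lower and 29.4%, 20.3%, 38.3% and 41.2% higher in this order. The count of lower genes in mutant MEFs is near its background. The medians were -0.10, -0.45, -0.47 and -0.87. Scd1, a desaturase that makes monounsaturated fatty acids, had 287, 281 and 285 CPM in WT and 110, 104 and 102 in sgPrrx1 wound-healing fibroblasts, and was 2.21-fold lower in sgPrrx1 MEFs. Fasn, the fatty acid synthase, went from 599, 588 and 601 CPM to 241, 242 and 239 in MMTV-CAFs and was higher in sgPrrx1 wound-healing fibroblasts, at 458, 450 and 454 against 341, 345 and 341 CPM.

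Genes of fatty acid uptake and partners of Lpl were lower for 6 of 12 in mutant MEFs, 6 of 12 in sgPrrx1 MEFs, 7 of 12 in sgPrrx1 wound-healing fibroblasts and 4 of 12 in sgPrrx1 MMTV-CAFs, and higher for 2, 0, 5 and 7, against 30.5%, 22.8%, 39.3% and 41.9% of all genes lower and 29.4%, 20.3%, 38.3% and 41.2% higher. The count of lower genes in sgPrrx1 MMTV-CAFs is near its background. Vldlr, a receptor for triglyceride-rich particles that works with Lpl, had 107, 106 and 86.4 CPM in WT MEFs and 4.28, 4.69 and 5.25 in mutant MEFs. It rose in sgPrrx1 wound-healing fibroblasts by 0.30 (SE 0.04, adjusted p = 0.000133) and in sgPrrx1 MMTV-CAFs by 0.13 (SE 0.03, adjusted p = 0.00206) on the log2 scale, where Lpl was lower. Fabp5, the relative of Fabp4 found in skin and fat, had 95.2, 72.0 and 116 CPM in WT MMTV-CAFs and 430, 437 and 420 in sgPrrx1 MMTV-CAFs, and it was 2.31-fold lower in sgPrrx1 wound-healing fibroblasts. Angptl4, a secreted inhibitor of Lpl, was 2.93-fold higher in sgPrrx1 wound-healing fibroblasts, at 49.6, 51.8 and 49.0 CPM against 17.7, 16.6 and 16.8. Fabp3 was 9.29-fold lower in mutant and 3.82-fold lower in sgPrrx1 MEFs. A list of paralogs and close relatives of the 9 genes, which holds some of these, was lower for 6 of 11, 5 of 10, 7 of 11 and 5 of 11 and higher for 1, 3, 4 and 2, with medians of -0.54, -0.52, -0.54 and -0.01.

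Genes of lipid droplets and lipolysis were lower for 4 of 11, 3 of 11, 4 of 12 and 8 of 13 and higher for 1, 2, 4 and 4 in the same order, with medians of -0.11, -0.17, -0.09 and -0.32. Of all genes 30.5%, 22.8%, 39.3% and 41.9% were lower and 29.4%, 20.3%, 38.3% and 41.2% higher, the background for each list in this paragraph, and the first 3 counts of lower genes were near these shares. Plin4, a droplet protein of fat cells, was 3.36-fold lower in sgPrrx1 MMTV-CAFs and 3.55-fold lower in sgPrrx1 wound-healing fibroblasts, while Plin2 fell in the former and rose in the latter. Mgll, a lipase of monoglycerides, had 1385, 1423 and 1769 counts in WT and 0, 9 and 7 in sgPrrx1 MMTV-CAFs. Target genes of PPARs in fatty acid oxidation were lower for 3, 3, 5 and 6 of 9 and higher for 4, 1, 3 and 3, with medians of 0.10, -0.18, -0.21 and -0.80. Pdk4, a kinase that spares glucose, had 12.9, 12.8 and 13.2 CPM in WT and 0.763, 0.769 and 0.875 in sgPrrx1 MMTV-CAFs, and was 3.51-fold higher in sgPrrx1 wound-healing fibroblasts and 6.24-fold lower in sgPrrx1 MEFs. Of genes of mature adipocytes, 6 or 7 of the 20 listed were counted well enough to be tested, and 3, 1, 3 and 2 were lower and 2, 2, 3 and 4 higher.

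**Figure D5:**
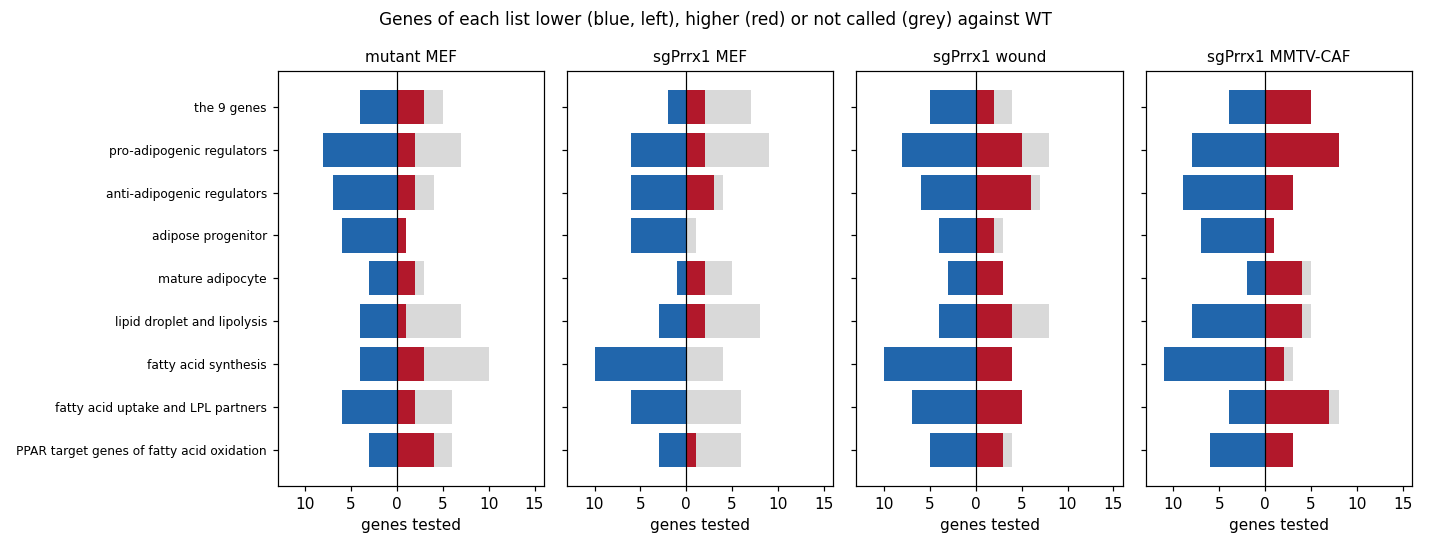
Number of genes tested (x axis) that were lower (blue, to the left), higher (red, to the right) or not called (grey, stacked on red) against WT, for the 9 genes and 8 lists around them (y axis), in the 4 comparisons (panels). The adipose progenitor list is lower for 6 of 7, 6 of 7, 4 of 7 and 7 of 8 genes.

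Genes with the most similar pattern to each member were looked for over the 21 cultures by Pearson's r of log2 CPM among 15092 genes. These correlations are descriptive, since the 21 cultures fall into 7 groups that share a type, a line and a depth. The closest genes were Npnt for Pparg (r = 0.93), ICK for Cebpa (0.964), Atxn1 for Cebpb (0.885), Tigd2 for Cebpd (0.984), Sirpa for Lpl (0.992), 5031439G07Rik for Plin2 (0.98), Tmub1 for Fabp4 (0.985), H2-T23 for Medag (0.977) and Nphp4 for Zfp423 (0.936). Snai2 was the third closest gene for Cebpa (0.94). Among the members themselves the highest values were 0.876 for Cebpd and Fabp4, 0.834 for Plin2 and Zfp423 and 0.819 for Lpl and Medag, and the lowest was -0.879 for Cebpd and Plin2. Pparg had its highest value with Cebpa (0.342) and -0.215 with Fabp4.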

How the data were processed

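RNA of 21 mouse fibroblast cultures (7 groups of 3) was sequenced in 100-base read pairs from TruSeq RNA v2 libraries, which do not keep strand. The authors deposited, for each of 3 fibroblast types, a table of raw counts per gene (HTSeq counts of reads that STAR had placed on mm10 after Trimmomatic). The annotation, the strand setting and whether mates of a pair were counted apart are not given in the sources used here, and neither is whether the batch correction ComBat-seq, named for human fibroblasts, was applied to these tables. Double counting or unstranded counting of overlapping genes would change counts and their precision. Groups were taken from the sample labels, and the columns of the wound-healing fibroblasts, which name the type less fully, were matched by elimination.

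Total counts per culture were 69588655 to 134790440. Each comparison was fitted on its 6 cultures with edgeR 4.0.16 (R 4.3.3, filterByExpr with a minimum of 10 counts, TMM scaling, quasi-likelihood F test) over all genes passing the filter, with Benjamini-Hochberg adjustment over all of them and a threshold of 0.05. The interaction used 18 cultures and the contrasts of WT types 9. The study names DESeq2 without a model for these cultures, so DESeq2 1.42.0 served as an alternative beside other scalings, filters, halved counts, a replicate block, other sets of cultures in the fit, a 2-fold threshold and each culture left out in turn. Alternatives for sgPrrx1 against mutant MEFs and for the WT types were chosen after seeing the data. Levels are CPM over the 24447 genes common to the tables, and exon lengths came from NCBIM37 with Gencode M1. The fits were tested on simulated counts. Intervals and ratios of summed counts cover counting error only. The 9 genes and all lists were chosen with earlier results of these data known. The 9 genes and Prrx1 are always named, and of each list up to 3 called genes with the largest change in a comparison and at least 1 CPM in either group. For likeness, the 3 genes of highest Pearson correlation were taken. Other genes named, such as those of the Y chromosome and Xist, were chosen after their values were seen.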

Additional observations from a re-analysis of the deposited data

Results flagged for a closer look

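The change of 8 of the 9 genes with sgPrrx1 differed between MEFs, wound-healing fibroblasts and MMTV-CAFs by the test of the interaction in edgeR, which also called 80.1% of all genes tested. The adjusted p was 5.14e-15 for Medag, which was lower in wound-healing fibroblasts (log2 fold change -3.92) and slightly higher in MMTV-CAFs (0.16), and 2.78e-14 for Fabp4, which was lower in MEFs (-2.22) and higher in MMTV-CAFs (4.73). It was 4.12e-11 for Pparg, higher in MEFs (0.51, a call that single cultures decide) and lower in wound-healing fibroblasts (-0.69) and MMTV-CAFs (-3.09). It was 1.13e-10 for Lpl, lower in the 3 types by unequal amounts, and 1.02e-09 for Cebpd, which rose in MMTV-CAFs (1.99). It was 5.22e-08 for Cebpa, higher in MEFs (1.30) and lower in the other types. It was 3.65e-05 for Plin2, which was higher in wound-healing fibroblasts (0.55) and lower in MMTV-CAFs (-0.36), and 5.92e-05 for Zfp423, which had at most 9 counts in any WT culture of wound-healing fibroblasts or MMTV-CAFs.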

How the results depend on the processing

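The 9 genes gave 45 values of change against 672 alternatives, and 627 of these kept the direction and the side of the threshold, 29 lost the call, 15 gained it and 1 turned the direction. Of the 45 values, 27 were kept under every alternative tried. The direction turned for Cebpb in mutant against WT MEFs without WT replicate 2 (-0.16, adjusted p = 0.497), because that culture had 203 counts, and over the cultures left out in turn this value ran from -0.16 to 0.96. The number of the 9 genes called in wound-healing fibroblasts was 3 in place of 7 when at least a 2-fold change was also asked for, since 4 called changes were smaller. The share of all genes under that rule was not counted. With 1 culture left out at a time, the number called was 7 to 8 in mutant MEFs, 3 to 5 in sgPrrx1 MEFs, 7 to 8 in wound-healing fibroblasts, 8 to 9 in MMTV-CAFs and 6 to 8 for sgPrrx1 against mutant MEFs. Of all genes, 48% to 58.9%, 28.1% to 47%, 73.3% to 74.4%, 79.8% to 81.5% and 45.7% to 55.9% were called in this order. With a replicate number left out in every group, the number called was 8 for the interaction and 21 to 22 for the WT types, and shares of all genes were not counted. DESeq2 called Medag in sgPrrx1 MEFs (adjusted p = 0.035) and Cebpd between sgPrrx1 and mutant MEFs (0.0213), which edgeR did not. Fabp4 in wound-healing fibroblasts passed with halved counts (adjusted p = 0.0441), with a minimum of 10 counts per culture (0.0418) and with all 21 cultures in the fit (0.00551). The cause of these changes was not tested.

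Replicate numbers did not pair the cultures. Same-numbered cultures correlated in their deviations from the group means by -0.253 to 0.203. Of the WT cultures, only MEF cultures 1 and 3, set against sgPrrx1 MEFs, correlated best with the culture of their own number. With the replicate number as a block, 7 of the 9 genes were called in mutant MEFs, 6 in sgPrrx1 MEFs, 8 in wound-healing fibroblasts, 8 in MMTV-CAFs, 6 for sgPrrx1 against mutant MEFs and 8 for the interaction. Of all genes, 47.4%, 49.6%, 75.5%, 81.4% and 39.4% were called under the block in this order, up to the interaction. Under the block Plin2 (adjusted p = 0.00716) and Medag (0.0276) passed in sgPrrx1 MEFs and Cebpb (0.0333) in wound-healing fibroblasts, while Zfp423 in MMTV-CAFs (0.0597) and Cebpb between sgPrrx1 and mutant MEFs (0.107) did not. Depth limits Zfp423 outside MEFs, where whole groups held 9 or 10 counts, and Fabp4 and Cebpa where they were near 1 CPM. Where each culture had to have 10 counts or more, Zfp423 gave no value in wound-healing fibroblasts or MMTV-CAFs.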
